A study of Mus musculus with 18 samples.

Results

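The change that C26 tumours brought about in tibialis anterior (TA) muscle was set against the change in the KPP model, gene by gene, in 8 of the 18 libraries of a mouse RNA sequencing series on cancer cachexia. The 8 libraries were taken by their labels, 2 in each of 4 groups. C26 tumour muscle came from CD2F1 mice that carried C26 cells, a mouse colon carcinoma line, under the skin, and C26 control muscle from CD2F1 mice given PBS in place of cells. KPP tumour muscle came from C57BL/6 mice of a genetic tumour model induced with tamoxifen, and KPP control muscle from mice of that model labelled as having no tumour. The labels give neither the alleles of the KPP model, nor the tissue or promoter that drives recombination, nor whether its controls received tamoxifen, nor the age of any mouse. All libraries were poly(A) RNA, each labelled a biological replicate, so the spread between the 2 libraries of a group is all that the tests have, pooled over the series. Mouse strain and kind of model (transplanted or genetic) change together here, and their parts in any C26 against KPP difference cannot be told apart.

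Cachexia is the wasting of muscle and fat that accompanies many tumours. In muscle fibres it is marked by ubiquitin ligases and the proteasome, which break down proteins, by FoxO and glucocorticoid signalling, and by signalling of interleukin 6 through STAT3. Muscle also holds a dense bed of capillaries, whose endothelial cells depend on receptors for vascular growth factors, together with mural cells (pericytes and smooth muscle) and fibro-adipogenic progenitors, the fibroblast-like cells that make most of its matrix. Below, the C26 effect and the KPP effect are log2 fold changes, tumour minus control, and their difference is the C26 effect minus the KPP effect, each ± its standard error (n = 2 libraries per group). Levels are CPM, counts scaled to library size. Adjusted p values come from a quasi-likelihood F test in edgeR, adjusted by Benjamini and Hochberg's method over all genes, and a gene is called, or said to rise or fall, where that value lies under 0.05.

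The 8 libraries held 22770678 to 34573474 fragments each, and 16049 genes were tested after 47 keratin and cornified-envelope genes were set aside (0 of those 47 were called in the difference). Summed over those 47 genes, CPM was 29.7 and 69.0 in C26 tumour, 131 and 206 in C26 control, 42.0 and 266 in KPP tumour and 885 and 26.6 in KPP control libraries 1 and 2. C26 tumour library 2 stood apart from the other 7: its 13 myofibre markers summed to 98961 CPM, against 152537 to 191436 in the others, and its mitochondrially encoded share was 5.94%, against 10.4 to 22.4%. KPP tumour library 1 had 3386 CPM of 11 erythroid markers, and the other 7 had 269 to 1157. The myofibre markers were thus abundant in every library, as the label of muscle requires.

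Genes that were called in both models nearly all moved the same way. C26 tumours changed 3414 genes (21.3%), 1844 higher (11.5%) and 1570 lower (9.78%), and the KPP model changed 5878 (36.6%), 2802 higher (17.5%) and 3076 lower (19.2%). Both effects were called in 2393 genes, 70.1% of those called in C26 and 40.7% of those called in KPP, and 2366 of the 2393 (98.9%) had the same sign. Across all genes the effects correlated with Pearson's r = 0.587, where genes are not independent replicates and the models share no control library.

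The difference between the effects was called in 174 of 16049 genes (1.08%). In 146 of them (0.91%) the C26 effect lay above the KPP effect, and in 28 (0.174%) below it. Most of the 146 were genes that fell in KPP muscle: 103 fell there and were not called in C26, 8 fell in both, and 19 fell in KPP and rose in C26, while 16 rose in C26 and were not called in KPP. Of the 28, 16 rose in KPP only and 7 fell in C26 only by those calls, 3 rose in KPP and fell in C26, 1 rose in both and 1 fell in both. The median size of a called difference was 2.09 on the log2 scale, and the smallest adjusted p was 0.00325.

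**Figure D1:**
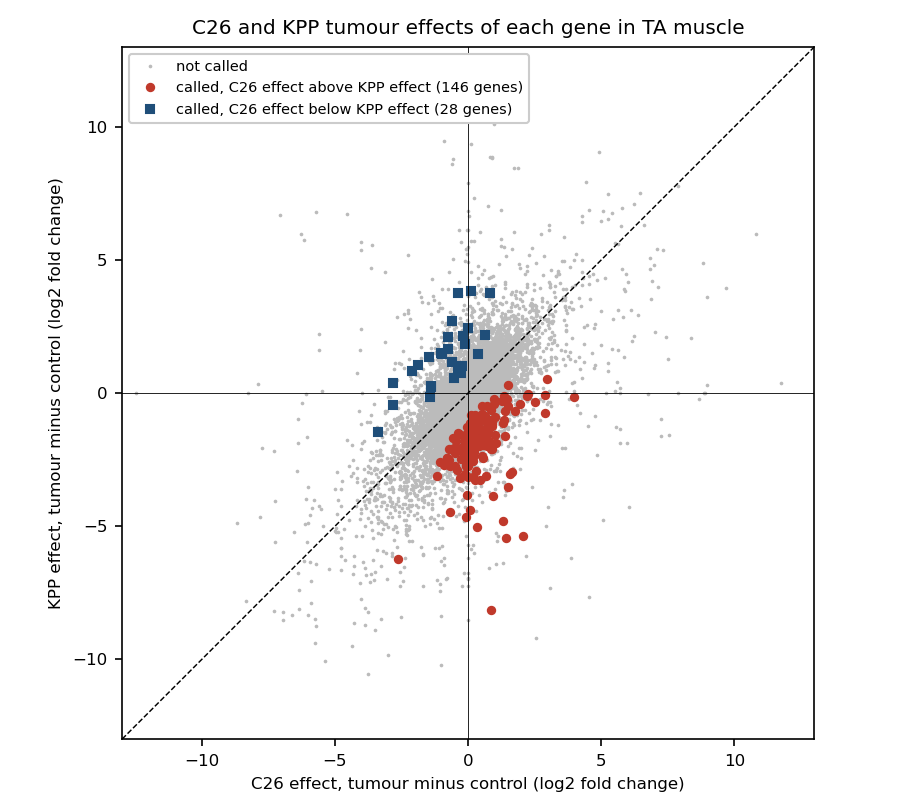
Each point is 1 of 16049 genes, with its C26 effect (log2 fold change, tumour minus control) on the horizontal axis and its KPP effect on the vertical axis. The dashed line marks equal effects. The 146 red circles, called with the C26 effect above the KPP effect, lie mostly below the horizontal zero line, and the 28 blue squares lie above the dashed line.

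The number of these calls changed greatly when a single library was left out. Such a fit holds 1 library in that group, so lost power and the part of the library itself cannot be told apart. The count was 0 without C26_control replicate 2 (1813 genes at an unadjusted p under 0.05), 9 without KPP_control replicate 1, 22 without C26_control replicate 1, 38 without C26_tumor replicate 1, 92 without KPP_tumor replicate 2, 134 without KPP_control replicate 2, 206 without KPP_tumor replicate 1 and 279 without C26_tumor replicate 2. With the 8 libraries fitted alone edgeR called 0 genes (2053 at an unadjusted p under 0.05), whereas DESeq2 in the full design called 640, of which 171 were among the 174. The split was 75 higher and 40 lower with scaling by relative log expression, 335 and 305 with DESeq2, 581 and 385 without a filter on low counts and 80 and 31 without mitochondrially encoded genes.

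Most markers of endothelial cells fell in KPP tumour muscle, and none was called in C26 tumour muscle. All 18 endothelial markers were tested, and 4 were called in the difference, against 1.08% of all genes. All 18 differences were positive, against 8375 of all 16049, with a median of 1.40 against 0.03 over all tested genes. In C26 muscle 0 of 18 were called (median effect 0.07), against 21.3% of all genes. In KPP muscle 14 fell, against 19.2% of all genes (median -1.26, against -0.03 over all genes). In 17 of 18 both KPP tumour libraries lay below both KPP controls, which was so in 34% of all genes, while 30.2% of all genes lay above both controls. In C26, 3 of 18 lay below both controls and 5 above them, against 31.4% and 34.4% of all genes.

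Tek encodes TIE2, the angiopoietin receptor of endothelial cells, and lies on the plus strand at chr4:94739289-94874976 (mm10). It had 21.6 and 14.7 CPM in C26 tumour, 15.2 and 14.2 in C26 control, 5.28 and 7.78 in KPP tumour and 22.8 and 24.7 in KPP control libraries. The KPP groups stood well apart, while the C26 groups overlapped. The difference was 2.16 ± 0.31 (adjusted p = 0.0143), from a C26 effect of 0.30 ± 0.22 and a KPP effect of -1.86 ± 0.23. Of the 4 endothelial genes called, Tek held best: it was called with each of the other 7 libraries left out, and not without C26_control replicate 2 (adjusted p = 0.126).

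Tie1, at chr4:118471191-118490061 on the minus strand, encodes the orphan partner of TIE2. Its levels were 30.1 and 28.4 CPM in C26 tumour, 34.6 and 26.8 in C26 control, 10.2 and 5.78 in KPP tumour and 39.5 and 33.2 in KPP control muscle. Again the C26 groups overlapped and the KPP groups did not. The difference was 2.13 ± 0.46 (adjusted p = 0.0478), and the KPP effect was -2.20 ± 0.34.

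Eng, at chr2:32646595-32682669 on the plus strand, encodes endoglin, a TGF-beta co-receptor of endothelium. It had 27.6 and 17.8 CPM in C26 tumour, 30.3 and 21.9 in C26 control, 6.15 and 7.72 in KPP tumour and 31.6 and 25.5 in KPP control muscle, a difference of 1.84 ± 0.40 (adjusted p = 0.0478). Sox18, at chr2:181669836-181671640 on the minus strand, encodes a SoxF transcription factor of vessels. It had 13.1 and 8.17 CPM in C26 tumour, 10.6 and 9.56 in C26 control, 0.991 and 2.30 in KPP tumour and 9.59 in each KPP control library, and its difference was 2.59 ± 0.58 (adjusted p = 0.0494). For both genes the low values were those of the KPP tumour libraries, and no C26 library was near them. With single libraries left out, Tie1 and Eng kept a call in 1 of 8 fits and Sox18 in 2 of 8, with adjusted p up to 0.196, 0.203 and 0.196.

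To show the regulatory sequence of vascular genes that moved together, the 250 bases before the start of Tek, Tie1 and Eng follow from RefSeq (GRCm38.p6), 5′ to 3′ on the gene's strand, at chr4:94739039-94739288 (plus), chr4:118489850-118490099 (minus) and chr2:32646345-32646594 (plus). These are RefSeq starts, and the windows of Tie1 and Emilin1 overlap the longer gene models of the annotation used for counting. Emilin1 (chr5:30913536-30913785, plus) is added as a gene that rose in C26 and fell in KPP muscle. Capitals mark matches to the core letters bound by ETS factors such as ERG, AGGAAG or CGGAAG on either strand.
Tek: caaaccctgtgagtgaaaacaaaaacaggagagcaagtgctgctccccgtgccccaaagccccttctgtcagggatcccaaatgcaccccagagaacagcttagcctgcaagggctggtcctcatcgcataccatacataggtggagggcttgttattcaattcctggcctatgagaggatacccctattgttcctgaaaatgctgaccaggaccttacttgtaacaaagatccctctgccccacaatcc
Tie1: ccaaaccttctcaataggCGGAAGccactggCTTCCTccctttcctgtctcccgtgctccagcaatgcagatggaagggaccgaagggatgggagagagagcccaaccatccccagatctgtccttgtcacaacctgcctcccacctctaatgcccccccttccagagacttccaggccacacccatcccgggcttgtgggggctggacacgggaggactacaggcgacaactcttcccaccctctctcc
Eng: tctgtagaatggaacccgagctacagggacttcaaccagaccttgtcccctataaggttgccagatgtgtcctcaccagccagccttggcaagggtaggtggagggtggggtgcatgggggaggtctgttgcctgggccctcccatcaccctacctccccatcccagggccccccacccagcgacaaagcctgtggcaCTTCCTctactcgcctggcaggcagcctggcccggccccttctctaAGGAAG
Emilin1: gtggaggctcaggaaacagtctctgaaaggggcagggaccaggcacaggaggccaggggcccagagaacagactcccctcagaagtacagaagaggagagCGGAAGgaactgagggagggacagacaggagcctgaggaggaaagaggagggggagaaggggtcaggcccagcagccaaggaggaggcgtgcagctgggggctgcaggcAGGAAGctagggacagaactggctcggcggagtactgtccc

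Tie1, Eng and Emilin1 each held 2 matches and Tek held 0. Of the endothelial markers, 12 had an entry, and 9 of those 12 held the core in at least 1 window, or 62.5% of their 16 windows, against 39.2% of all 32851 windows. The core was in 47.0% of 151 windows of genes called higher in the difference and 36% of 25 windows of genes called lower. The share is not particular to this motif: the letters of the NF-kB motif were also in 62.5% of the endothelial windows, against 45.8% of all windows. The motif was chosen after the calls were seen, and a match is letters in a window, not a bound site.

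The other 14 endothelial markers were not called in the difference, and their C26 effects lay on both sides of 0. Kdr, which encodes the main receptor for vascular endothelial growth factor, had 14.4 and 9.54 CPM in C26 tumour, 29.9 and 26.7 in C26 control, 3.88 and 3.12 in KPP tumour and 30.2 and 30.4 in KPP control muscle. Tumour libraries lay below controls in both models, but the effect passed in KPP (-3.12 ± 0.52) and not in C26 (-1.24 ± 0.48, adjusted p = 0.0813), with a difference of 1.88 ± 0.69 (adjusted p = 0.192). Cdh5, which encodes the junction protein VE-cadherin, fell in KPP (-2.08 ± 0.37), and its difference was 1.41 ± 0.51 (adjusted p = 0.182).

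Pecam1, the gene of the junction protein CD31, had 70.2 and 64.8 CPM in C26 tumour, 49.6 and 49.4 in C26 control, 29.6 and 49.8 in KPP tumour and 61.4 and 69.4 in KPP control muscle. The C26 effect of 0.45 ± 0.26 was not called, the KPP effect of -0.72 ± 0.26 was (adjusted p = 0.0411), and the difference was 1.17 ± 0.36 (adjusted p = 0.133). Cldn5, a tight junction gene, was the 1 marker whose KPP groups overlapped, with 54.4 and 8.84 CPM in KPP tumour against 13.4 and 23.1 in KPP control. Summed over the 18 markers, CPM was 765 and 684 in C26 tumour, 883 and 758.5 in C26 control, 430.2 and 308 in KPP tumour and 882.5 and 870.1 in KPP control muscle. In bulk muscle, fewer endothelial cells and less of these RNAs per cell cannot be told apart.

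**Figure D2:**
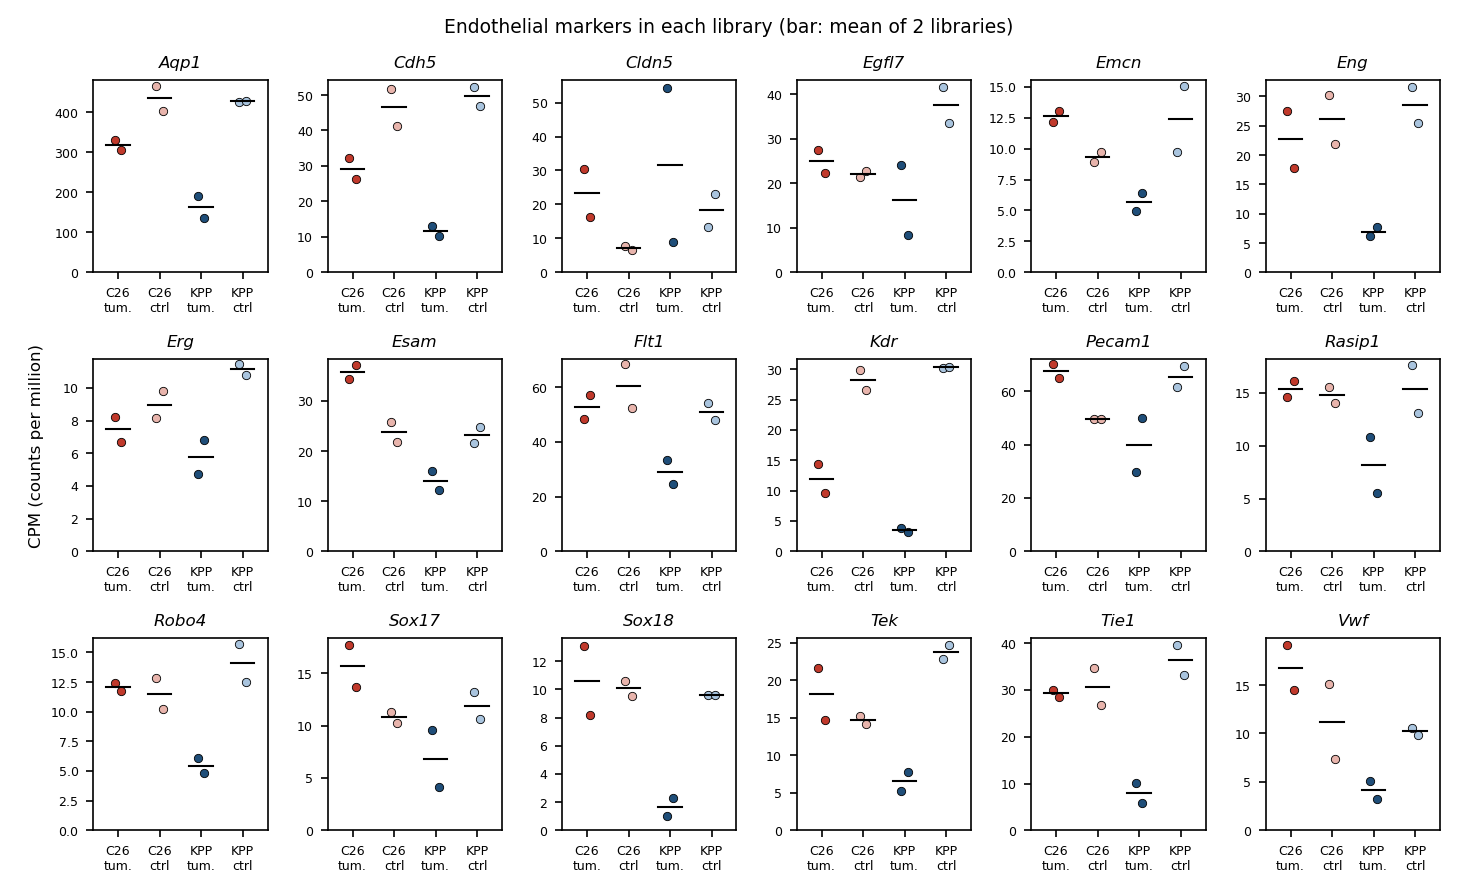
CPM of the 18 endothelial markers in each library of C26 tumour, C26 control, KPP tumour and KPP control muscle (points are libraries, bars are means of 2). In every panel but that of Cldn5 both KPP tumour points lie below both KPP control points, while C26 tumour points lie above, among or below their controls.

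In the authors' deposited tables all 18 markers had a lower log2 fold change in KPP than in C26. By the adjusted p of the authors' deposited tables, 9 fell in KPP, and 2 fell and 2 rose in C26, with medians of 0.04 in C26 and -1.23 in KPP. The authors' deposited tables hold each model's comparison with its own controls and no test of the difference.

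Of 12 pericyte and smooth muscle markers 10 fell in KPP muscle (median -1.20), against 19.2% of all genes. In C26 1 rose and 1 fell (median -0.34), against 11.5% and 9.78% of all genes. The difference was called in 1 of 12, Tagln, which encodes the actin-binding protein SM22 of smooth muscle. Tagln had 36.4 and 34.3 CPM in C26 tumour, 24.6 and 14.2 in C26 control, 24.7 and 24.8 in KPP tumour and 29.9 and 48.1 in KPP control muscle. It rose in C26 (0.87 ± 0.24) and fell in KPP (-0.65 ± 0.24), a difference of 1.52 ± 0.34 (adjusted p = 0.0494). Neither effect of Tagln passed in the authors' deposited tables (adjusted p = 0.132 in C26 and 0.278 in KPP). Notch3, the receptor that maintains mural cells, had a difference of 1.71 ± 0.64 and Myh11, the smooth muscle myosin gene, of 1.34 ± 0.54, and neither passed (adjusted p = 0.196 and 0.231).

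Fibro-adipogenic progenitor genes split. Of 14 markers 8 fell and 1 rose in KPP muscle (median -1.50), where 19.2% of all genes fell and 17.5% rose. In C26 3 rose and 3 fell (median 0.07), against 11.5% and 9.78% of all genes. The difference was called higher in 2, with a median of 1.28. Pi16, a peptidase inhibitor gene that marks a fibroblast population, had 48.9 and 7.50 CPM in C26 tumour, 20.7 and 24.1 in C26 control, 1.44 and 0.333 in KPP tumour and 30.1 and 26.1 in KPP control muscle. Its difference of 5.38 ± 0.95 (adjusted p = 0.0253) came from a KPP effect of -5.05 ± 0.75, while the 2 C26 tumour libraries lay on either side of their controls. The Pi16 difference was 3.40 without C26_tumor replicate 1, 4.51 without KPP_tumor replicate 2, 6.11 without C26_tumor replicate 2 and 6.71 without KPP_tumor replicate 1. It was called in 3 of the 8 fits with 1 library left out, and not without C26_tumor replicate 1, KPP_tumor replicate 2, KPP_control replicate 1 or either C26_control replicate.

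Cxcl14, a chemokine gene of fibroblasts, had 145 and 81.8 CPM in C26 tumour, 64.9 and 58.3 in C26 control, 24.4 and 22.9 in KPP tumour and 53.2 and 47.7 in KPP control muscle. It rose in C26 (0.88 ± 0.28) and fell in KPP (-1.09 ± 0.28), a difference of 1.98 ± 0.39 (adjusted p = 0.036). Apod, the lipocalin apolipoprotein D, rose in both models, by 1.97 ± 0.31 in C26 and 1.63 ± 0.30 in KPP. The number of the 14 called in the difference was 7 without C26_tumor replicate 2, 1 without KPP_control replicate 2 or without KPP_tumor replicate 1, and 0 without any 1 of the other 5 libraries.

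Of 39 collagen and matrix genes 14 fell and 1 rose in C26, where 24 did not pass (median -1.08). In KPP 29 fell and 0 rose (median -2.16). Among all genes 9.78% fell in C26 and 19.2% in KPP. The difference was positive in 36 of 39, against 8375 of all 16049 genes, with a median of 1.12 against 0.03. It was called in 1, Eln, the gene of elastin. Eln had 26 and 21.2 CPM in C26 tumour, 15.2 and 10 in C26 control, 6.36 and 5.94 in KPP tumour and 15.8 and 11.4 in KPP control muscle, with a C26 rise of 0.90 ± 0.28, a KPP fall of -1.15 ± 0.29 and a difference of 2.06 ± 0.40 (adjusted p = 0.0344).

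The fibrillar collagen gene Col3a1 had 42.4 and 10 CPM in C26 tumour, 153 and 113 in C26 control, 4.50 and 2.73 in KPP tumour and 197 and 86.3 in KPP control muscle. It fell in both models, with effects of -2.34 ± 0.52 in C26 and -5.30 ± 0.61 in KPP, and the difference of 2.96 ± 0.73 did not pass (adjusted p = 0.0665). Serpinh1, the collagen chaperone gene, had a difference of 1.71 ± 0.39 (adjusted p = 0.0515) and Bgn, the proteoglycan biglycan, of 2.10 ± 0.50 (adjusted p = 0.0596). Without C26_tumor replicate 2 the difference was called in 8 of the 39 and its median was 1.37, and without C26_tumor replicate 1 in 0 with a median of 0.62. It was called in 2 without KPP_control replicate 2 or without KPP_tumor replicate 1, and in 0 without either C26_control replicate, KPP_control replicate 1 or KPP_tumor replicate 2.

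Complement genes had the highest median difference of the 16 gene groups described, 1.59 over 14 genes, of which 2 were called. In C26 muscle 1 rose and 0 fell, and in KPP 1 rose and 8 fell (medians 0.22 and -1.33). The shares of all genes were 11.5% and 9.78% in C26 and 17.5% and 19.2% in KPP. Cd55, which encodes a surface protein that protects cells from complement, had 45.7 and 39.8 CPM in C26 tumour, 38.8 and 41.8 in C26 control, 15.4 and 18.2 in KPP tumour and 37.5 and 43.4 in KPP control muscle. Only the KPP tumour libraries were low, and the difference was 1.35 ± 0.27 (adjusted p = 0.0377). C1s1, a protease of the first complement component, had 33.8 and 16.4 CPM in C26 tumour, 19.6 and 17.4 in C26 control, 12 and 8.72 in KPP tumour and 36.2 and 29.6 in KPP control muscle, a difference of 2.11 ± 0.44 (adjusted p = 0.0439).

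C3, the central complement protein, had 95.6 and 30.3 CPM in C26 tumour, 30.0 and 19.3 in C26 control, 14.4 and 13 in KPP tumour and 43.5 and 28.5 in KPP control muscle. Its difference of 2.75 ± 0.79 did not pass (adjusted p = 0.105), and neither effect was called. The difference was called in 6 of the 14 complement genes without C26_tumor replicate 2, in 1 without KPP_tumor replicate 1 and in 0 without any 1 of the other 6 libraries.

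Of 37 interferon response genes 6 fell and 0 rose in C26 (median -0.36), and 22 fell and 0 rose in KPP (median -1.16). Among all genes 9.78% fell in C26 and 19.2% in KPP. The difference was called in Oasl2 alone, an antiviral gene of the oligoadenylate synthetase family. It had 2.35 and 1.90 CPM in C26 tumour, 1.91 and 1.82 in C26 control, 0.413 and 0.606 in KPP tumour and 3.15 and 2.30 in KPP control muscle, and its difference was 2.59 ± 0.49 (adjusted p = 0.0307). The median difference of the 37 genes was 0.70. Of 15 antigen presentation genes 1 fell in C26 and 11 in KPP. In the difference edgeR and DESeq2 called 0 of them (median 0.60). An unadjusted p under 0.05 (edgeR) was found in 3, against 16.4% of all genes.

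By edgeR 0 markers of Schwann cells, macrophages, neutrophils, adipocytes, tendon and erythroid cells were called in the difference, nor by DESeq2. In that order, 4 of 11, 3 of 19, 3 of 12, 2 of 12, 0 of 12 and 1 of 11 had an unadjusted p under 0.05 (edgeR). The share of all genes was 16.4%. Neutrophil markers were called higher in both models, 5 of 12 in C26 and 7 in KPP, against 11.5% and 17.5% of all genes. Their summed CPM was 10.8 and 28.5 in C26 tumour, 2.0 and 1.8 in C26 control, 23.1 and 64.5 in KPP tumour and 3.3 and 3.7 in KPP control muscle. Tendon markers summed to 167 and 59.6 CPM in C26 tumour, 311 and 323 in C26 control, 56.9 and 71.1 in KPP tumour and 398 and 190.1 in KPP control muscle. Beside the vascular and stromal genes, 5 of 11 Schwann cell markers fell in KPP (median -1.60), against 19.2% of all genes. In C26 0 of the 11 were called (median -0.36). Erythroid markers had a median difference of -1.55 (0 of 11 called). The part of these other cell types, and of the mitochondrially encoded share, in the differences above was not tested.

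A few genes moved in opposite directions. In 22 genes both effects were called with opposite signs and the difference was called, 19 of them up in C26 and down in KPP. Samhd1, which encodes a deoxynucleotide triphosphatase that restricts retroviruses, had 67.4 and 74.9 CPM in C26 tumour, 22.6 and 19.9 in C26 control, 13.1 and 17.8 in KPP tumour and 27.1 and 22.8 in KPP control muscle. No 2 groups of the same experiment overlapped. The C26 effect was 1.74 ± 0.19 and the KPP effect -0.69 ± 0.19, and the difference of 2.44 ± 0.27 (adjusted p = 0.00325) was called without each library in turn except C26_control replicate 2 (adjusted p = 0.0522). Samhd1 lies at chr2:157097533-157135265 on the minus strand.

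Emilin1, a glycoprotein gene of elastic fibres at chr5:30913402-30921277 on the plus strand, had 9.97 and 9.14 CPM in C26 tumour, 5.69 and 4.87 in C26 control, 1.16 and 1.30 in KPP tumour and 5.84 and 4.84 in KPP control muscle. The controls of both models were alike in level, and the tumour libraries lay above them in C26 and below them in KPP. The difference was 2.97 ± 0.38 (adjusted p = 0.00551, and 0.0843 without C26_control replicate 2). Rpn2, which encodes a subunit of the oligosaccharyltransferase that glycosylates proteins, had 67.2 and 61.4 CPM in C26 tumour, 46.2 and 37.3 in C26 control, 25.5 and 20 in KPP tumour and 40.2 and 43.5 in KPP control muscle, a difference of 1.51 ± 0.22 (adjusted p = 0.0143, and 0.126 without C26_control replicate 2).

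Pros1, the gene of anticoagulant protein S, differed by 1.96 ± 0.30 (adjusted p = 0.0143), Adcy4, an adenylyl cyclase gene, by 2.55 ± 0.40 (adjusted p = 0.015) and Jak3, a kinase of cytokine receptors, by 2.35 ± 0.37 (adjusted p = 0.0156). Jak3 had 20.3 and 13.6 CPM in C26 tumour, 7.21 and 6.18 in C26 control, 3.84 and 3.57 in KPP tumour and 8.42 and 6.44 in KPP control muscle. In the reverse direction, Pou6f1, a POU-domain transcription factor gene, had 16.1 and 14.8 CPM in C26 tumour, 23.5 and 21.0 in C26 control, 22.3 and 25.0 in KPP tumour and 17.4 and 14.8 in KPP control muscle, a difference of -1.08 ± 0.22 (adjusted p = 0.0437). Lrrc74b differed by -2.81 ± 0.60 (adjusted p = 0.047). In the authors' deposited tables both effects of Emilin1 and Adcy4 passed an adjusted p of 0.05. By those tables Samhd1 and Jak3 passed in C26 and not in KPP (adjusted p = 0.218 and 0.110). Rpn2 passed there in KPP and not in C26 (adjusted p = 0.0532). For Pros1, Pou6f1 and Lrrc74b neither effect passed there. With single libraries left out, Adcy4 was called in 5 of 8 fits, Pros1 and Jak3 in 4, and Pou6f1 and Lrrc74b in 1.

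**Figure D3:**
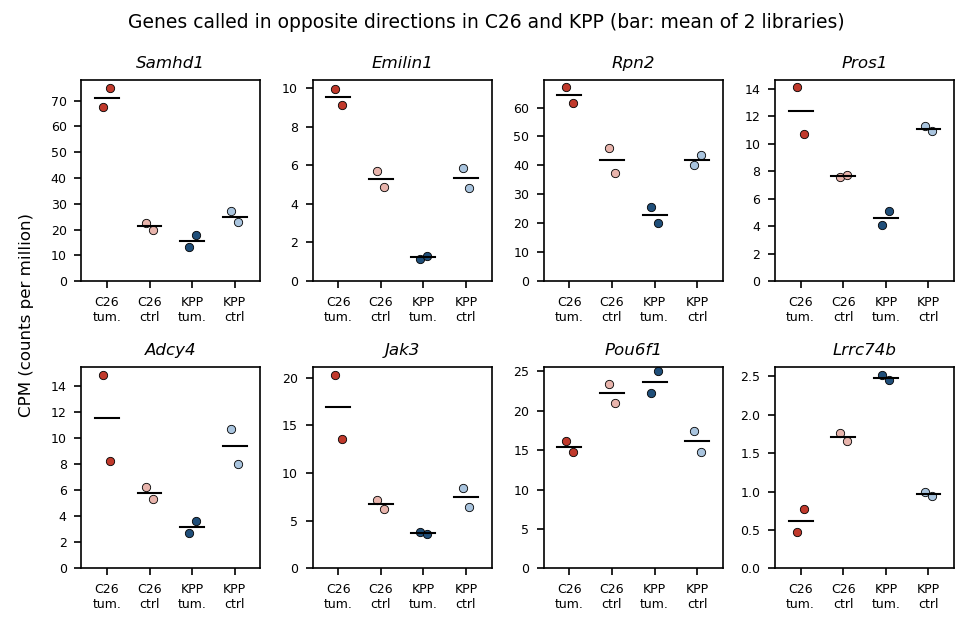
CPM in each library for 8 genes with called effects of opposite sign (points are libraries, bars are means of 2). The first 6 genes are above their controls in C26 tumour muscle and below them in KPP tumour muscle, and Pou6f1 and Lrrc74b the reverse.

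Among the genes with the largest positive differences, several were low in KPP tumour muscle alone. Sema6a, a semaphorin gene, had 8.92 and 5.33 CPM in C26 tumour, 6.02 and 5.89 in C26 control, 0.661 and 0.999 in KPP tumour and 8.67 and 7.39 in KPP control muscle. The C26 groups overlapped, and the difference of 3.51 ± 0.40 shared the smallest adjusted p with Samhd1, 0.00325 (0.0522 without C26_control replicate 2). Sod3, the extracellular superoxide dismutase gene, had 8.54 and 3.20 CPM in C26 tumour, 6.09 and 5.58 in C26 control, 0.330 and 1.09 in KPP tumour and 8.21 and 5.04 in KPP control muscle, a difference of 3.18 ± 0.66 (adjusted p = 0.0417). Heyl, a target gene of Notch signalling, had 6.79 and 4.50 CPM in C26 tumour, 8.22 and 5.64 in C26 control, 0.826 and 0.666 in KPP tumour and 6.72 and 6.79 in KPP control muscle, a difference of 2.89 ± 0.52 (adjusted p = 0.0262).

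In all 3 of these genes the C26 groups overlapped and the KPP groups did not. Pcdh12, an endothelial protocadherin gene, fell in both models, with effects of -2.64 ± 0.45 in C26 and -6.23 ± 0.61 in KPP, a difference of 3.59 ± 0.79 (adjusted p = 0.0479). Lgi4, the gene of a secreted protein needed for nerve myelination, differed by 2.90 ± 0.43 (adjusted p = 0.0143), Aqp7, a glycerol channel gene, by 3.79 ± 0.73 (adjusted p = 0.0338), and Slc26a10, of the SLC26 anion transporter family, by 3.79 ± 0.70 (adjusted p = 0.0287), each with a KPP effect called and a C26 effect not called.

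For Syt12 and Grrp1 a large positive difference came from a rise in C26, and for Mybph it came mainly from a fall in KPP. Syt12, a synaptotagmin gene, had 7.75 and 10.2 CPM in C26 tumour, 1.51 and 0.892 in C26 control, 0.949 and 1.21 in KPP tumour and 2.76 and 0.799 in KPP control muscle, a difference of 3.64 ± 0.63 (adjusted p = 0.0253). Grrp1 had 17.9 and 19.5 CPM in C26 tumour, 2.56 and 2.52 in C26 control, 3.10 and 5.69 in KPP tumour and 3.82 and 5.44 in KPP control muscle, a difference of 2.94 ± 0.45 (adjusted p = 0.0143). For both, the C26 tumour libraries stood above all other 6 and the KPP groups overlapped. Mybph, the gene of myosin-binding protein H, had 6.26 and 6.64 CPM in C26 tumour, 1.98 and 2.07 in C26 control, 0.826 and 2.18 in KPP tumour and 10.8 and 13 in KPP control muscle. Its difference was 4.62 ± 0.84 (adjusted p = 0.0275), with a KPP fall of -2.95 ± 0.61 and a C26 effect of 1.67 ± 0.58 that just missed the threshold (adjusted p = 0.0569).

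Genes with the C26 effect below the KPP effect were raised in KPP, lowered in C26, or both. Fxyd7, a regulator gene of the sodium pump, had 0.476 and 0.734 CPM in C26 tumour, 0.396 and 0.287 in C26 control, 6.11 and 7.72 in KPP tumour and 0.460 and 0.549 in KPP control muscle, a difference of -2.95 ± 0.59 (adjusted p = 0.0362). Gadd45g, a stress-response gene of growth arrest, had 34.9 and 27.1 CPM in C26 tumour, 76.7 and 48.8 in C26 control, 148 and 71.0 in KPP tumour and 45.9 and 31.6 in KPP control muscle, a difference of -2.51 ± 0.53 (adjusted p = 0.044). In both genes the KPP tumour libraries lay above both KPP controls. For Gadd45g both C26 tumour libraries also lay below both C26 controls, and KPP tumour library 2 lay below C26 control library 1. The authors' deposited tables give Gadd45g a C26 fall of -1.04 (adjusted p = 0.00321). Ppp1r3f, which encodes a glycogen-targeting subunit of protein phosphatase 1 (-2.46 ± 0.43), C1qtnf4, a C1q family gene (-2.31 ± 0.47), Car14, a carbonic anhydrase gene (-2.39 ± 0.50), Fam214a (-1.96 ± 0.39) and the noncoding RNA gene Snhg8 (-1.53 ± 0.30) likewise rose in KPP, with adjusted p of the difference from 0.0253 to 0.0423. Snhg8 also rose in C26 (0.64 ± 0.21). In the authors' deposited tables Snhg8 had a higher log2 fold change in C26 than in KPP, the reverse order. Neither of its effects passed there (adjusted p = 0.128 in C26 and 0.419 in KPP).

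Npr3, the clearance receptor of natriuretic peptides, had 2.76 and 3.30 CPM in C26 tumour, 12.7 and 13.3 in C26 control, 13.2 and 34.9 in KPP tumour and 15.6 and 11.7 in KPP control muscle. It fell in C26 (-2.10 ± 0.38) and its KPP effect of 0.82 ± 0.35 was not called, with a difference of -2.92 ± 0.52 (adjusted p = 0.0255). Ramp1, a subunit of the receptor for calcitonin gene-related peptide, fell in both models and further in C26: it had 6.03 and 2.97 CPM in C26 tumour, 43.7 and 51.6 in C26 control, 18.1 and 19.8 in KPP tumour and 44.6 and 59.4 in KPP control muscle, a difference of -1.95 ± 0.44 (adjusted p = 0.0494). Iqcg (-2.38 ± 0.44), the muscle small heat shock protein gene Hspb3 (-1.66 ± 0.36) and the dehydrogenase gene Dhrs11 (-1.62 ± 0.29) fell in C26 and were not called in KPP, with adjusted p of the difference from 0.0257 to 0.0478.

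**Figure D4:**
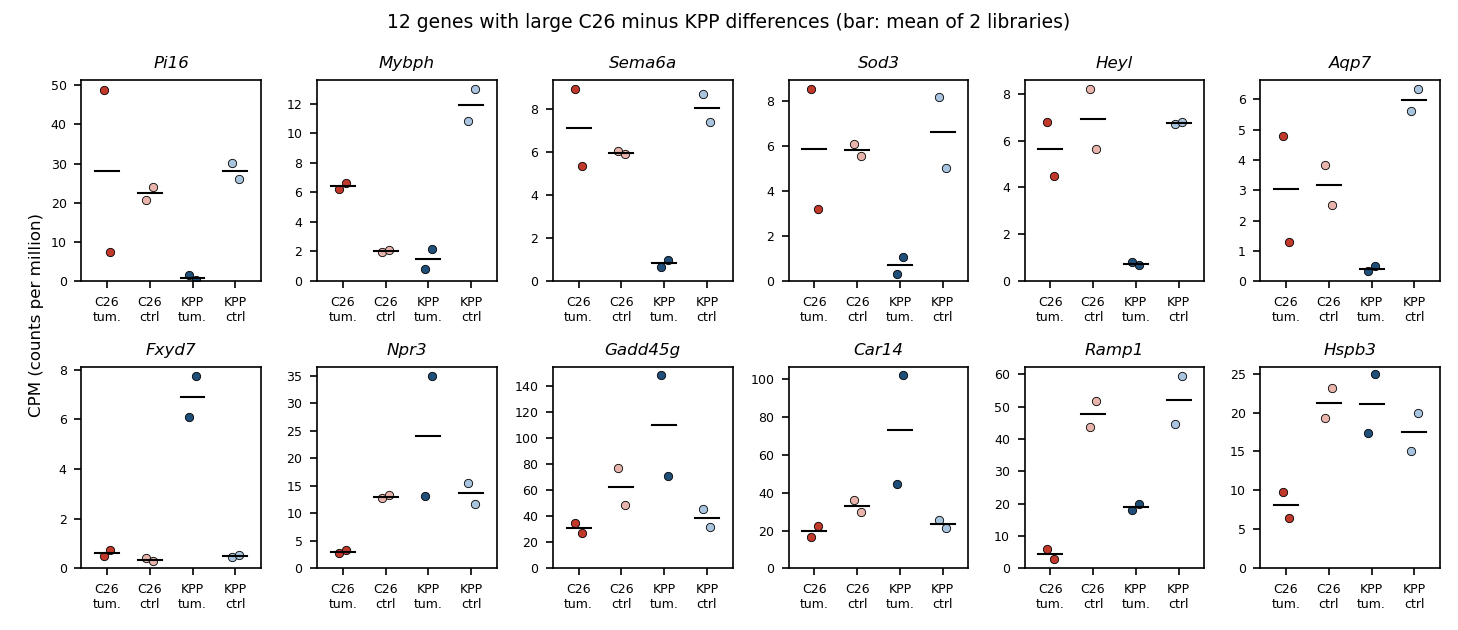
CPM in each library for 12 genes with large called differences (points are libraries, bars are means of 2). The first 6 have a C26 effect above the KPP effect and the last 6 a C26 effect below it. In Pi16, Sema6a, Sod3, Heyl and Aqp7 the KPP tumour points lie near 0, and in Fxyd7 they lie above all others.

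Of the 41 genes named here whose difference was called, 41 lost the call without C26_control replicate 2, 35 without KPP_control replicate 1, 34 without C26_control replicate 1, 28 without C26_tumor replicate 1, 22 without KPP_tumor replicate 2, 16 without KPP_control replicate 2, 14 without KPP_tumor replicate 1 and 7 without C26_tumor replicate 2. The 41 are those called with all libraries, and the largest were also picked for tumour libraries in the same order. Their sign is therefore no independent check. None of the 41 changed sign in any of these 8 fits. Samhd1, Emilin1, Rpn2, Sema6a and Tek were called in 7 of them.

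Most genes of a panel of 20 cachexia genes, chosen with earlier results of these data known, rose in both models. In C26 15 rose and 3 fell, and in KPP 16 rose and 3 fell. Over all genes 11.5% rose and 9.78% fell in C26, and 17.5% rose and 19.2% fell in KPP. Of the 20, 17 were called in both with the same sign. The difference was called in 0 by edgeR (1.08% of all genes) and in 2 by DESeq2 (3.99%). At an unadjusted p under 0.05 there were 6 (16.4% of all genes). Of 26 ubiquitin ligases 5 rose and 2 fell in C26, and 5 rose and 5 fell in KPP. Trim63, which encodes the ubiquitin ligase MuRF1, had 1189 and 2444 CPM in C26 tumour, 182 and 193 in C26 control, 2853 and 2499.7 in KPP tumour and 212 and 413 in KPP control muscle, a difference of 0.18 ± 0.62. Fbxo32, the ligase gene of atrogin-1, had 1244 and 1761 CPM in C26 tumour, 155 and 183 in C26 control, 1380.4 and 1099.7 in KPP tumour and 262 and 412 in KPP control muscle. It rose by 3.15 ± 0.35 in C26 and 1.88 ± 0.33 in KPP, and the difference of 1.27 ± 0.45 did not pass (adjusted p = 0.18).

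Mt2, a metallothionein gene, rose by 8.84 ± 1.07 in C26 and 4.90 ± 0.89 in KPP, a difference of 3.94 ± 1.15 that did not pass (adjusted p = 0.109). Pdk4, a kinase gene that inhibits pyruvate dehydrogenase, had 1616 and 1293 CPM in C26 tumour, 266 and 217 in C26 control, 1029 and 524 in KPP tumour and 368 and 1010.0 in KPP control muscle, a difference of 2.42 ± 0.70 (adjusted p = 0.108). Cebpd, a transcription factor gene of the acute phase, rose further in KPP (4.42 ± 0.43) than in C26 (2.79 ± 0.40), but the difference of -1.62 ± 0.53 did not pass either (adjusted p = 0.151). These intervals are wide, and a difference that was not called does not show equal effects.

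Of 30 genes of the interleukin 6, STAT3 and acute phase group, 20 rose and 0 fell in C26 (median 1.85), and 12 rose and 5 fell in KPP (median 0.73). Among all genes 11.5% rose in C26, and 17.5% rose and 19.2% fell in KPP. The difference was positive in 27 of 30, against 8375 of all 16049 genes, with a median of 1.14 against 0.03. It was called in Jak3 alone. For Il6ra it was 0.04 ± 0.66 and for Stat3 0.42 ± 0.51, and neither passed (adjusted p = 0.991 and 0.733). The acute phase gene Serpina3n had 141 and 754 CPM in C26 tumour, 3.53 and 3.38 in C26 control, 9.33 and 25.5 in KPP tumour and 4.53 and 2.45 in KPP control muscle, a difference of 4.71 ± 1.10 (adjusted p = 0.0555). Its reads may be shared with near-identical copies such as Serpina3m. Il4ra, an interleukin receptor gene, had 19.9 and 25.6 CPM in C26 tumour, 4.90 and 3.95 in C26 control, 8.88 and 13.2 in KPP tumour and 6.44 and 6.59 in KPP control muscle, a difference of 1.60 ± 0.38 (adjusted p = 0.0566).

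Several fibre and housekeeping groups had negative median differences with 0 genes called by edgeR. At an unadjusted p under 0.05 there were 22 of 78 ribosomal protein, 5 of 33 proteasome and 23 of 76 oxidative phosphorylation genes, and DESeq2 called 6, 0 and 8. Over all tested genes 2640 (16.4%) had such a p, a share that the proteasome count did not exceed, and DESeq2 called 3.99%. All 78 ribosomal protein genes had a negative difference (median -0.54): 72 rose in C26 (median 0.90) and 78 in KPP (median 1.41). Proteasome subunits rose in 16 of 33 cases in C26 and 28 in KPP, where 1 fell, with medians of 0.65 and 1.09. Nuclear genes of oxidative phosphorylation fell in 47 of 76 cases in C26 (median -0.78), while in KPP 14 fell and 3 rose (median -0.13). The shares of all genes were 11.5% higher and 9.78% lower in C26, and 17.5% higher and 19.2% lower in KPP. Whereas 8375 of all 16049 genes had a positive difference, all 76 of these differences were negative, with a median of -0.55. Among them Cox4i1, a subunit gene of cytochrome oxidase, had 628 and 625 CPM in C26 tumour, 1094 and 1106 in C26 control, 1296 and 929.6 in KPP tumour and 853 and 1204 in KPP control muscle, a difference of -0.93 ± 0.32 (adjusted p = 0.166).

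Glucocorticoid and FoxO targets rose in 18 of 30 cases in C26 and 20 in KPP, where 1 fell, and 0 were called in the difference by edgeR (median -0.32, with 7 at an unadjusted p under 0.05 and 3 by DESeq2). Ubiquitin ligases had 5 of 26 higher and 2 lower in C26 and 5 higher and 5 lower in KPP. Among all genes 11.5% rose and 9.78% fell in C26, and 17.5% rose and 19.2% fell in KPP. The KPP ligase counts lay near the KPP shares. The median difference of the ligases was 0.01, and -0.08 with scaling by relative log expression. In the difference edgeR and DESeq2 called 0 ligases, and 4 had an unadjusted p under 0.05, against 16.4% of all genes. The difference was called by edgeR in 0 of 12 metallothionein and zinc transport genes (3 at an unadjusted p under 0.05, and 1 by DESeq2), 1 of 15 satellite cell and myogenic genes (Heyl), 1 of 21 p53 and GADD45 genes (Gadd45g) and 1 of 19 NRF2 and antioxidant genes (Sod3). Among satellite cell genes, Pax7, the factor that marks these stem cells, fell in KPP (-1.57 ± 0.43). Its C26 effect was 0.08 ± 0.40 and its difference 1.65 ± 0.59 (adjusted p = 0.182). Pax7 levels were low, with 2.03 and 1.23 CPM in C26 tumour and 1.41 and 1.69 in C26 control muscle. KPP tumour muscle had 0.330 and 0.697 CPM, and KPP control muscle 1.63 and 1.498. The KPP effect of Pax7 did not pass in the authors' deposited tables (adjusted p = 0.292).

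**Figure D5:**
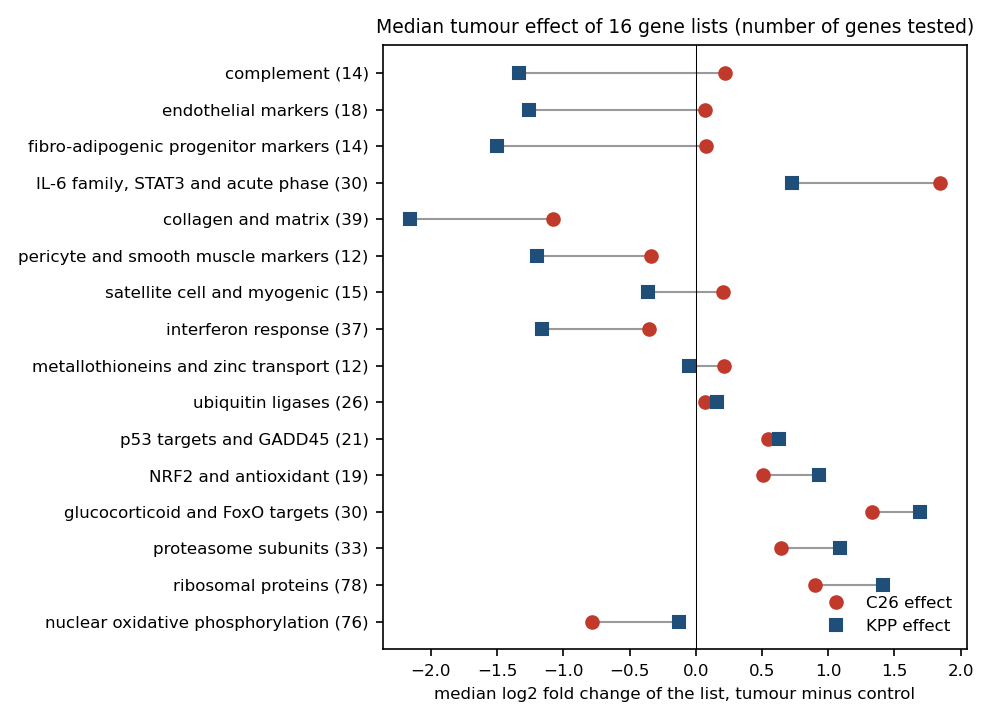
Median log2 fold change, tumour minus control, of 16 gene groups in C26 (red circles) and KPP (blue squares), ordered by the median difference, with the number of genes tested in parentheses. Complement, endothelial and fibro-adipogenic progenitor medians are near 0 in C26 and between -1.50 and -1.26 in KPP, while the medians for ribosomal proteins and proteasome are above 0 in both.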

How the data were processed

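RNA of TA muscle was sequenced as paired reads from poly(A) libraries. Per the submitters' processing notes, bcl2fastq 2.20, FastQC, Salmon, DESeq2 and build mm10 were used, with settings not given in the sources used. The deposited transcript tables hold Salmon's estimated counts and TPM for each library, made by the authors. The authors' deposited comparison tables hold log2 fold changes and adjusted p-values. Estimated counts were summed per gene over GENCODE M21 (139958 of 140825 transcripts matched, and 0.4115 to 0.6851% of fragments did not) and rounded to whole numbers. TPM was not tested.

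All 18 libraries entered one model of 9 groups in edgeR 4.0.16 (R 4.3.3, quasi-likelihood F test, TMM scaling, filterByExpr, 9 residual degrees of freedom), which pools the spread, and 16096 genes were tested with Benjamini-Hochberg adjustment and a threshold of 0.05. A standard error is the log2 difference divided by the square root of F. On simulated data with known answers for the C26 against KPP difference (16096 genes), 73% of 100 genes changed 4-fold and 10% of 100 changed 2-fold were called, with 6 unchanged genes.

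Named genes were the 12 largest called differences in each direction with a mean CPM of at least 5 in some group, the same order in all tumour libraries and groups apart in at least 1 model, up to 6 of smallest p called opposite ways in each direction, up to 4 of smallest p for each described list, and a panel of 20, which gave 105 genes. Predicted gene names were left out. Kdr, Cdh5, Pecam1, Cldn5 and Apod were named after their values were seen. The genes and lists were chosen with earlier results of these data known. Same-numbered libraries did not deviate together (r = -0.0754 in C26 and -0.172 in KPP), so replicate numbers are not taken as pairs. The 18 alternatives tried include DESeq2 1.42.0, other scaling, no filter and each library left out.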

Additional observations from a re-analysis of the deposited data

Results flagged for a closer look

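The difference between the C26 and KPP effects was called by edgeR in 41 of the 105 named genes, against 1.08% of all genes. Many of the 105 were picked by that same test, so the number 41 is not a result in itself. The difference on the log2 scale (C26 effect minus KPP effect) was positive in 27: Pi16 5.38, Mybph 4.62, Slc26a10 3.79, Aqp7 3.79, Syt12 3.64, Pcdh12 3.59, Sema6a 3.51, Sod3 3.18, Emilin1 2.97, Grrp1 2.94, Lgi4 2.90, Heyl 2.89, Samhd1 2.44, Rpn2 1.51, Pros1 1.96, Adcy4 2.55, Jak3 2.35, Tek 2.16, Tie1 2.13, Eng 1.84, Sox18 2.59, Tagln 1.52, Cxcl14 1.98, Eln 2.06, Cd55 1.35, C1s1 2.11 and Oasl2 2.59. It was negative in 14: Fxyd7 -2.95, Npr3 -2.92, Gadd45g -2.51, Ppp1r3f -2.46, Car14 -2.39, Iqcg -2.38, C1qtnf4 -2.31, Fam214a -1.96, Ramp1 -1.95, Hspb3 -1.66, Dhrs11 -1.62, Snhg8 -1.53, Pou6f1 -1.08 and Lrrc74b -2.81. Strain and kind of model cannot be told apart in any of them.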

How the results depend on the processing

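With 2 libraries per group the count of called differences depended on most choices. Against 174 (146 higher, 28 lower, 22 opposite), it was 0, 0, 0 and 0 with the 8 libraries alone, 640 (335, 305, 38) with DESeq2, 115 (75, 40, 14) with relative log expression scaling, 1 (1, 0, 0) against a fold of 2, 44 (37, 7, 9) with length-scaled counts, 966 (581, 385, 66) without a filter and 111 (80, 31, 14) without mitochondrially encoded genes. With a replicate block within each experiment it was 10 (10, 0, 2), and with a crossed block in KPP, chosen after seeing the data, 104 (91, 13). Leaving out 1 library gave 0 to 279 in all, 0 to 205 higher, 0 to 87 lower and 0 to 25 opposite. C26 effects numbered 2041 with the 8 libraries alone, 331 against a fold of 2 and 1042 to 3788 with 1 library left out, and KPP effects 1146 against a fold of 2 and 3236 to 5964. The difference for Socs3 was -0.50 ± 1.08 (adjusted p = 0.869 by edgeR) and ranged from -1.43 without KPP_tumor replicate 1 to 2.96 without KPP_tumor replicate 2, whose level was 52.6 CPM against 2.35 in replicate 1. Other causes were not tested.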

Other observations

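For some genes the 2 tumour libraries of a model lay far apart. In KPP tumour libraries 1 and 2, Ppargc1a, the coactivator gene of mitochondrial biogenesis, had 19.4 and 236 CPM, Myog, the myogenic factor gene myogenin, 2.06 and 32.4, and Stat3 44.8 and 129. In C26 tumour libraries 1 and 2, Angptl4, a lipase inhibitor gene, had 33.1 and 4.67 CPM, against 0.865 and 1.34 in C26 control, and Serpina3n had 141 and 754.

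Short motifs were counted on both strands in the same 250-base windows. The STAT letters TTCNNNGAA were in 7.29% of 151 windows of genes called higher and 0 of 25 windows of genes called lower, against 7.02% of all windows. The FoxO letters GTAAACA were in 1.99% and 0, against 3.17%, and the metal response letters (TGCACNC or TGCGCNC) in 27.8% and 36%, against 21.4%. The NF-kB letters were in 55.0% and 64%, against 45.8%, the D-box letters TTATGNAA in 2.65% and 4%, against 3.07%, and the glucocorticoid receptor motif in 0 and 4%, against 0.387%.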
